A study of Mus musculus with 6 samples.

Results

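The genes examined here encode the subunits of the proteasome, together with the factors that assemble, activate or inhibit it. They were taken from the deposited expression table as every gene whose symbol is Psm, a letter from a to g, and a number, which gave 48 of 40840 genes. Psmb8, Psmb9 and Psmb10, the immunoproteasome subunits, were described apart from the other 45. Expression was measured by RNA-seq in colonic organoids, 3-dimensional cultures of colon epithelium grown in Matrigel, from wt C57BL/6 mice. The control group was 3 libraries from untreated mice, whose age the labels do not list. The DSS group was 3 libraries from mice given dextran sodium sulfate (DSS), which injures the colon epithelium, at 2.5% in the drinking water for 5 days from 10 weeks of age and for another 5 days after a 2-week interval. Organoids of the DSS group were established on day 14 after DSS, RNA was taken on day 4 of culture, and each library came from a different mouse. The culture medium held L-WRN conditioned medium and small-molecule inhibitors, among them one of p38, so every value describes cells in that medium. The comparison asked whether epithelium that had gone through DSS colitis expressed these genes differently once in culture.

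The proteasome is the protease that degrades proteins tagged with ubiquitin. Its barrel-shaped core, the 20S particle, stacks outer rings of alpha subunits on inner rings of beta subunits, and 3 of the beta subunits carry the catalytic sites. The 19S particle caps the core, binds ubiquitin-tagged proteins, unfolds them with a ring of ATPases and feeds them into the core. In immune cells, and in other cells exposed to interferon gamma, the catalytic subunits Psmb5, Psmb6 and Psmb7 are replaced in newly made particles by Psmb8, Psmb9 and Psmb10. The resulting immunoproteasome favours peptides that fit MHC class I molecules. In the gut, immunoproteasome subunits are known to be induced in inflamed mucosa.

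Levels are given in TPM (length-corrected transcript abundance), a unit that sums to the same total in each library, so levels of different genes can be compared but sequencing depth is unknown. Fold changes are DSS minus control on the log2(TPM + 1) scale and understate changes of low genes. They were tested with limma (two-sided) on the 11643 genes with a mean of at least 1 TPM, with Benjamini-Hochberg adjustment across all of them and a threshold of 0.05. Of these genes, 1204 (10.3%) passed, 751 (6.45%) higher and 453 (3.89%) lower in DSS organoids. The median log2 fold change of all tested genes was 0.05, and moved to −0.003 after median-ratio scaling and to −0.02 after quantile normalization. Across genes, DSS replicate 1 correlated at 0.941 with DSS replicate 2 and at 0.966 with DSS replicate 3, against 0.981 between DSS replicates 2 and 3. On the second principal component DSS replicates 1 and 2 lay at opposite ends, at 32.3 and −36.9. The labelled cell type was borne out by its markers: the 10 epithelial markers summed to between 9950 and 16389 TPM in every library, while 6 fibroblast markers summed to at most 0.15 TPM and 3 endothelial markers to at most 0.27 TPM. Markers of immune cells differed between the groups. The 10 of them summed to 11, 5.31 and 6.39 TPM in control libraries and to 223.0, 283.0 and 171.9 TPM in DSS organoids. Of them, 4 passed the threshold. Ptprc, the pan-leukocyte gene, was 0.08, 0.05 and 0.08 TPM in control libraries and 0.30, 0.47 and 0.39 TPM in DSS organoids. The macrophage genes Csf1r and Adgre1 were at most 0.09 and 0.04 TPM in control libraries. In DSS organoids Csf1r was 1.08, 2.79 and 1.34 TPM and Adgre1 0.90, 1.70 and 1.08 TPM. These low genes fell below the filter and were not tested. The T-cell gene Cd3e was listed at 0 in all libraries, and Cd79a overlapped between the groups. In such bulk libraries, fewer cells of a type and less RNA per cell cannot be told apart.

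Proteasome genes were among the abundant transcripts of these organoids, and their levels in DSS organoids lay close to those in control. Together, the 43 tested members outside the immunoproteasome made up 0.755% of the total TPM, and 27 of all members lay in the top 10% of tested genes by mean TPM. Psma8, the testis form of an alpha subunit, and Psmb11, the thymus form of a catalytic subunit, were listed at 0 in all 6 libraries, and the other 46 members were tested. None of these 46 passed the threshold in either direction in limma, beside a background of 10.3% of all genes, and the smallest adjusted p was 0.0551, for Psmb5. At an unadjusted p under 0.05 there were 5 (Psmb5, Psmb9, Psmb10, Psmg4 and Psme4), where 29.6% of all tested genes reached that level. The control and DSS values did not overlap in 7 members (15.2%), against 36.4% of all tested genes. Positive fold changes numbered 25 and negative ones 21.

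The size of the differences was bounded by the 95% intervals of the fold changes. For the 43 members outside the immunoproteasome, the log2 fold changes ran from −0.37 to 0.40 with a median of 0.00, which was −0.06 after median-ratio scaling and −0.04 after quantile normalization. Their intervals reached no lower than −0.68 and no higher than 0.76, so that all 43 excluded a 2-fold change in either direction, as did 74.1% of all tested genes. A 1.5-fold change was excluded by 33 of the 43. The summed TPM of the 43 genes was 7461, 7483 and 7658 in control and 8710, 6626 and 7359 in DSS organoids. The DSS sums lay on both sides of the control sums, and the means of 7534 ± 108 and 7565 ± 1057 TPM (SD, n = 3 each) differed by less than either SD. By contrast, none of the 3 immunoproteasome genes had an interval that excluded a 2-fold increase, while all 3 excluded a 2-fold decrease. All 3 had a positive fold change.

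**Figure D1:**
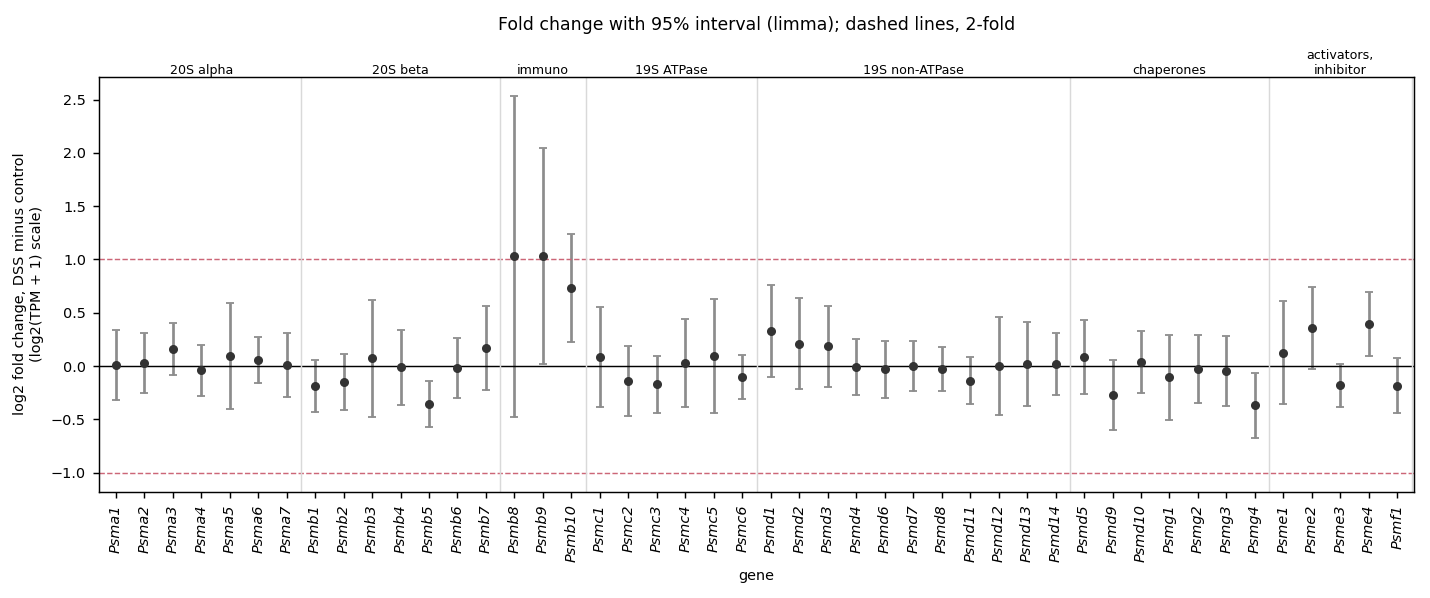
Log2 fold change (DSS minus control, log2(TPM + 1) scale) of the 46 tested proteasome genes, grouped by subcomplex, with 95% limma intervals as bars and dashed lines at a 2-fold change. The intervals of the 43 genes outside the immunoproteasome lie within 1 log2 unit of 0, while those of Psmb8, Psmb9 and Psmb10 reach past it.

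Levels differed between the parts of the complex, with overlapping ranges. The 14 subunits of the 20S core had mean TPM over the 6 libraries from 163.9 to 428.5, with a median of 306.6. The 17 subunits of the 19S particle ran from 75.7 to 199.7, with a median of 139.0. Within the beta ring the highest and lowest mean differed only 1.55-fold, and within the ring of ATPases 1.56-fold. The chaperones, which act on the particle during assembly and are not part of the finished complex, were lower, from 18.6 to 68.7 TPM, and the immunoproteasome genes ranged from 12.4 TPM for Psmb8 to 85.1 TPM for Psmb10.

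**Figure D2:**
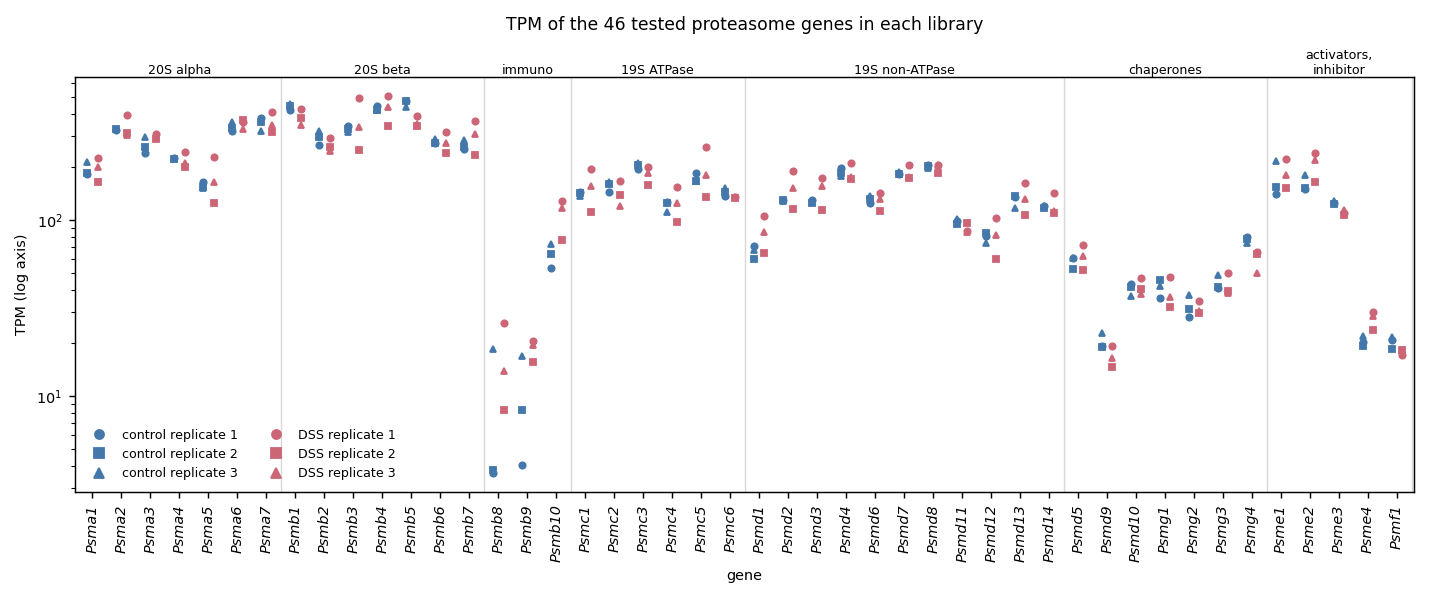
TPM (log axis) of the tested proteasome genes in each of the 3 control and 3 DSS libraries, grouped by subcomplex. The median of the mean levels is 306.6 TPM for the 20S core and 139.0 TPM for the 19S genes, whose ranges overlap, and the control and DSS points of most genes overlap.

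The alpha ring, which gates entry to the core, showed no member past the threshold, none at an unadjusted p under 0.05 and none with separate groups. Psma7 had the highest mean level of the ring (353.7 TPM) and Psma5 the lowest (163.9 TPM). Psma3 had the highest fold change of the 7. Its values were 239.3, 260.2 and 294.8 TPM in control libraries and 306.9, 288.4 and 290.0 TPM in DSS organoids, so that control replicate 3 reached into the DSS range (log2 fold change 0.16, SE 0.10, adjusted p = 0.347). Psma4 had the lowest fold change, with 225.2, 220.6 and 221.5 TPM in control libraries and 242.1, 199.5 and 209.9 TPM in DSS organoids (−0.04, adjusted p = 0.831). The DSS libraries lay above and below the controls for this gene.

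In the constitutive beta ring, Psmb5 was the member whose groups lay furthest apart relative to their spread. Psmb5 carries the chymotrypsin-like activity of the core and is the main target of the inhibitor bortezomib. Its values were 471.7, 472.6 and 438.4 TPM in control libraries and 388.9, 342.7 and 349.9 TPM in DSS organoids, every DSS library below every control. The means were 460.9 ± 19.5 and 360.5 ± 24.9 TPM (SD, n = 3 each), a log2 change of −0.35 (SE 0.09, 95% interval −0.57 to −0.14). This missed the threshold (limma adjusted p = 0.0551). Without DSS replicate 1 it passed, at −0.41 and an adjusted p of 0.0167, in a comparison where 21.5% of all tested genes passed. DSS replicate 1 was the DSS library nearest to the controls for this gene, so that pass is not support. Over the alternatives the adjusted p of Psmb5 ran from 0.0167 to 0.225.

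The other catalytic subunits overlapped between the groups. Psmb6, which carries the caspase-like activity, was 271.4, 272.6 and 288.5 TPM in control libraries and 316.0, 239.2 and 271.9 TPM in DSS organoids (−0.02, SE 0.12, 95% interval −0.30 to 0.27, adjusted p = 0.935). Psmb7, which carries the trypsin-like activity, was 252.6, 257.6 and 283.7 TPM in control libraries and 363.0, 233.8 and 307.9 TPM in DSS organoids (0.17, SE 0.17, 95% interval −0.23 to 0.56, adjusted p = 0.547). For both, DSS replicate 1 was the highest library and DSS replicate 2 the lowest. Differences between the fold changes of these genes were not tested. Psmb4, a non-catalytic subunit, had the highest level of all members, with a mean of 428.5 TPM and a range from 342.8 to 506.2 TPM.

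The immunoproteasome genes had higher mean levels in DSS organoids, by a margin that did not pass the test for any of the 3. Psmb10, the counterpart of Psmb7, was the most abundant, at 53.1, 63.6 and 72.7 TPM in control libraries and 127.4, 77.1 and 116.9 TPM in DSS organoids. The groups did not overlap, although DSS replicate 2 lay just above control replicate 3. The means were 63.2 ± 9.77 and 107.1 ± 26.6 TPM (SD, n = 3 each), a log2 change of 0.73 (SE 0.21, 95% interval 0.22 to 1.24, unadjusted p = 0.0115, limma adjusted p = 0.0770). Without DSS replicate 2 the fold change was 0.95 with an adjusted p of 0.0184 (15.5% of all tested genes passed there). As that fit leaves out the DSS library nearest to the controls, the pass is not support. Over the alternatives the adjusted p of Psmb10 ran from 0.0184 to 0.225.

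Psmb9, the counterpart of Psmb6, was 4.07, 8.30 and 16.9 TPM in control libraries and 20.4, 15.5 and 19.5 TPM in DSS organoids. Control replicate 3 was above DSS replicate 2, and the control libraries spread widely while the DSS libraries lay close together. The means were 9.76 ± 6.54 and 18.5 ± 2.61 TPM, a log2 change of 1.03 (SE 0.43, 95% interval 0.02 to 2.05, limma adjusted p = 0.162). Psmb8, the counterpart of Psmb5, was 3.68, 3.82 and 18.5 TPM in control libraries and 26.1, 8.30 and 13.9 TPM in DSS organoids. Here control replicate 3 exceeded both DSS replicates 2 and 3, and the fold change of 1.03 had the widest interval of all members (SE 0.63, 95% interval −0.48 to 2.54, adjusted p = 0.324). Psmb8 was at 0.63 without DSS replicate 1, 0.68 without control replicate 1 and 1.71 without control replicate 3, and Psmb9 at 0.59 without control replicate 1 and 1.5 without control replicate 3, none of which passed. With control replicate 3 and DSS replicate 1 left out together, Psmb8 was at 1.31 (adjusted p = 0.0368) and Psmb9 at 1.42 (adjusted p = 0.0479), and 12.5% of all tested genes passed. Both libraries were the highest of their group for these genes, and the groups had overlapped through control replicate 3. This fit thus separates the groups by construction, and its p-values are not support. Over the alternatives, that fit included, the adjusted p of Psmb8 ran from 0.0368 to 0.633 and that of Psmb9 from 0.0479 to 0.346.

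Summed over the 3 genes, the immunoproteasome was at 60.9, 75.8 and 108.0 TPM in control libraries and at 174.0, 100.9 and 150.2 TPM in DSS organoids, with means of 81.6 ± 24.1 and 141.7 ± 37.3 TPM (SD, n = 3 each). DSS replicate 2, the lowest DSS library, lay below control replicate 3. Immune cells express these genes, and the summed immune markers given above moved with them between the groups. Within the groups the order differed: control replicate 3, the highest control for all 3 genes, had 6.39 TPM of immune markers against 11 TPM in control replicate 1, the lowest, and DSS replicate 2, the lowest DSS library for all 3 genes, had the highest marker sum of 283.0 TPM. The DSS sums were mostly Lyz2, the macrophage lysozyme, at 145.3, 226.8 and 122.6 TPM. Cd74, the MHC class II invariant chain on the same list, was 0.49, 0.79 and 1.02 TPM in control libraries and 57.2, 11.5 and 22.0 TPM in DSS organoids (3.87, SE 0.52, limma adjusted p = 0.0127). Unlike the sum, it had the order of all 3 immunoproteasome genes within each group, in control at no more than 1.02 TPM. The other tested immune markers, Lyz2, Tyrobp, Fcer1g and Cd68, were each highest in DSS replicate 2, at 226.8, 14.6, 7.28 and 17.9 TPM. The part of immune cells in the difference was not tested.

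Each immunoproteasome gene was also set against its constitutive counterpart within a library. This ratio does not depend on how the libraries were scaled. Psmb10 was at 21.0%, 24.7% and 25.6% of the TPM of Psmb7 in control and at 35.1%, 33.0% and 38.0% in DSS organoids. The groups were separate, with a mean log2 difference of 0.57 that stayed between 0.49 and 0.63 when any 1 library was left out. Psmb9 was at 1.5%, 3.04% and 5.86% of Psmb6 in control and at 6.47%, 6.49% and 7.17% in DSS organoids. These groups were also separate, but control replicate 3 came near the DSS values (mean log2 difference 1.16, from 0.67 to 1.65 with 1 library left out). Psmb8 was at 0.780%, 0.808% and 4.21% of Psmb5 in control and at 6.71%, 2.42% and 3.96% in DSS organoids. These groups overlapped through control replicate 3 (mean log2 difference 1.53, from 1.12 to 2.34). With 3 libraries against 3, an exact permutation test cannot give a two-sided p below 0.1, and none was run on these ratios. In every library the constitutive subunit exceeded its counterpart.

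**Figure D3:**
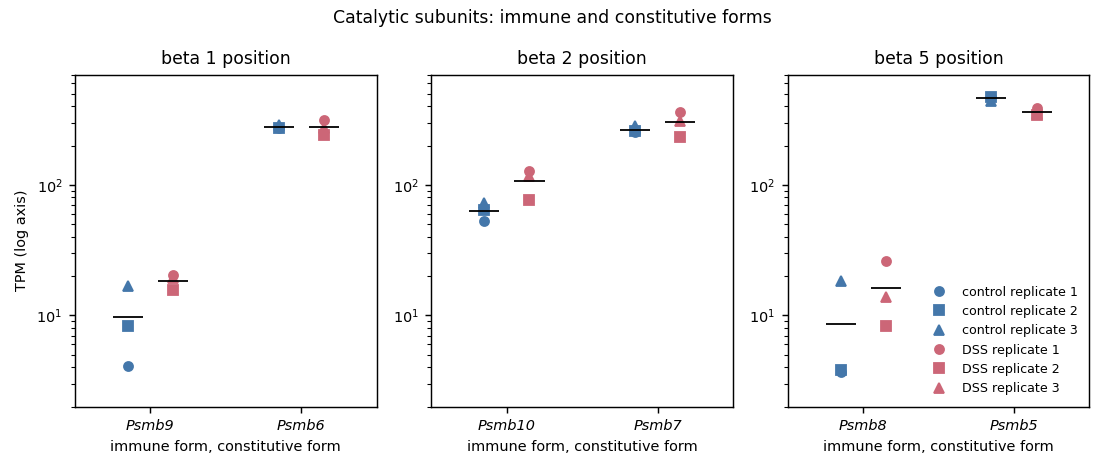
TPM (log axis) of each immunoproteasome gene beside its constitutive counterpart, with 1 point per library (3 control, 3 DSS) and a black bar at each group mean. Psmb10 is the only immune form whose DSS points (77.1 to 127.4 TPM) all lie above the control points (53.1 to 72.7 TPM), and every constitutive form lies above its counterpart.

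Psmb9 and Psmb8 lie in the MHC class II region of chromosome 17, each beside a gene of the peptide transporter that carries proteasome products into the endoplasmic reticulum: the order is Psmb9, Tap1, Psmb8, Tap2. Psmb9 and Tap1 start back to back on opposite strands, and the stretch between their annotated starts is known to act as a shared promoter. It is printed because the genes on its 2 sides had fold changes of opposite sign. The interval is 225 bases long, at chr17:34187331-34187555 of GRCm38.p6, on the plus strand in the direction of Tap1, from RefSeq, with the CCAAT motif in capitals.
Psmb9-Tap1 interval: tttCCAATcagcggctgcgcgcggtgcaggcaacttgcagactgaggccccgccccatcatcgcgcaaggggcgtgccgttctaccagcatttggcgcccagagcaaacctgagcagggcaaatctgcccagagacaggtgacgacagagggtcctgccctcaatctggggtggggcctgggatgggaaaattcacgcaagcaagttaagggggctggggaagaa

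Tap1 was 10.6, 13.4 and 31.8 TPM in control libraries and 5.48, 9.38 and 9.74 TPM in DSS organoids, every DSS library below every control, with a log2 change of −0.97 (SE 0.41, limma adjusted p = 0.168). Tap2 was 19.1, 21.1 and 26.1 TPM in control libraries and 9.32, 17.6 and 15.6 TPM in DSS organoids (−0.64, SE 0.24, adjusted p = 0.137). Neither passed the threshold, and both had lower values in DSS organoids while their proteasome neighbours had higher means. Psmb9 was at 38.5%, 61.8% and 53.1% of Tap1 in control and at 373.2%, 165.5% and 200% in DSS organoids. The groups of this ratio, a comparison chosen after its values were seen, did not overlap, and the mean log2 difference was 2.20 (1.86 to 2.44 with 1 library left out). Psmb8 over Tap2 overlapped, with 19.2%, 18.1% and 70.6% in control and 279.9%, 47.2% and 88.6% in DSS organoids.

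**Figure D4:**
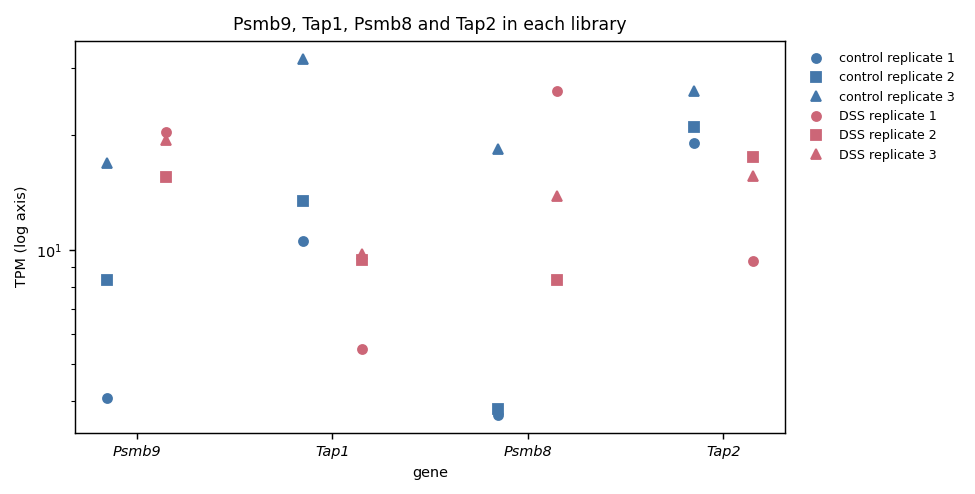
TPM (log axis) of the neighbouring genes Psmb9, Tap1, Psmb8 and Tap2 in each library. The DSS libraries lie below every control for Tap1 (5.48 to 9.74 against 10.6 to 31.8 TPM) and Tap2, while Psmb9 and Psmb8 overlap between groups with higher DSS means.

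The antigen processing list, 21 tested genes from interferon signalling to MHC class I with Tap1 and Tap2 among them, did not move in 1 direction. It had 1 gene higher and 1 lower past the threshold, beside 6.45% and 3.89% of all genes, and a median log2 fold change of 0.01. Irf8, a transcription factor best known from myeloid and B cells, rose from 27.9, 23.5 and 20 TPM to 55.7, 49.6 and 63.4 TPM (1.21, SE 0.15, limma adjusted p = 0.0112). H2-K1, an MHC class I heavy chain, fell from 1057, 1153 and 1447 TPM to 733.4, 812.1 and 806.2 TPM (−0.62, SE 0.13, adjusted p = 0.0347). H2 genes have near-identical copies among which the authors' estimation may have split reads. No gene of the list was lower past the threshold without the low-value filter or without the mean-variance trend.

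Irf9, a transcription factor that relays interferon signals, spread widely among the control libraries. It was 16.9, 41.6 and 62.3 TPM in control libraries and 8.52, 16.4 and 14.4 TPM in DSS organoids (−1.41, limma adjusted p = 0.104). All DSS values of the gene lay below all control values, and it did not pass. Ifngr2, a chain of the interferon gamma receptor, was 66.3, 60.7 and 52.0 TPM in control libraries and 81.1, 86.5 and 77.7 TPM in DSS organoids (0.45, SE 0.12, adjusted p = 0.0580). Control replicate 3 was the highest control library for 14 of the 21 genes of the list (66.7%) and for all 3 immunoproteasome genes, against 30.8% of all tested genes. That library was also the highest control for 22 of the 43 members outside the immunoproteasome (51.2%).

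Of the promoters of the 48 members, 40 matched RefSeq's table for GRCm38.p6 and were searched from 250 bases before to 50 after the annotated start, on both strands. TTCNNNGAA, a motif of the interferon gamma response, was found in 3 of 40 (7.5%, Psmb8 among them) and in 9.55% of 27025 genes. The core of the interferon-stimulated response element, a pair of GAAA words spaced by 2 bases, was in 5 of 40 (12.5%), among them Psme1 but none of the immunoproteasome genes, and in 3.99% of all genes. TGACNNNGC, the core of the antioxidant response element through which Nfe2l1 and Nfe2l2 are known to act, was in 6 of 40 (15%) and 14.0% of all genes. CCAAT, bound by NF-Y, was in 14 of 40 (35.0%) and 41.1% of all genes. Each motif was searched independently, so matches of different motifs may share letters, and a match is a description of the letters only. The stretches around the TGACNNNGC matches of Psmb5 and Psmb6 are printed with the motif in capitals. Both catalytic genes hold the motif. Their groups did not overlap for Psmb5 but did for Psmb6, a difference between the genes that was not tested. The match starts 47 bases before the start of Psmb5 (chr14:54618019-54618057, minus strand) and 9 bases before that of Psmb6 (chr11:70525333-70525356, plus strand).
Psmb5: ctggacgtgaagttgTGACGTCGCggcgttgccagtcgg
Psmb6: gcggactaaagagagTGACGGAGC

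The ATPases of the 19S particle had no member past the threshold and none at an unadjusted p under 0.05. Their summed TPM was 929.3, 940.3 and 940.3 in control and 1106, 772.6 and 898.3 in DSS organoids, on both sides of the control values. Psmc5 had the highest fold change, at 185.5, 165.3 and 166.3 TPM in control libraries and 257.6, 135.2 and 178.8 TPM in DSS organoids (0.10, adjusted p = 0.814), a sign that turned when DSS replicate 1 was left out (−0.15). Psmc3 had the lowest fold change and the highest level (191.9 TPM), at 193.2, 204.2 and 211.5 TPM in control libraries and 199.5, 158.4 and 184.8 TPM in DSS organoids (−0.17, SE 0.11, adjusted p = 0.355). Psmc6 was the only ATPase whose groups did not overlap, where 36.4% of all tested genes had separate groups. It was 135.9, 144.5 and 152.1 TPM in control against 134.8, 132.4 and 134.2 TPM in DSS organoids (−0.11, SE 0.09, limma adjusted p = 0.462).

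Among the 11 non-ATPase subunits, which hold the ubiquitin receptors, scaffolds and deubiquitinase of the particle, none passed and none had separate groups. Psmd8 had the highest mean level (199.7 TPM) and Psmd1 the lowest (75.7 TPM). Psmd1, a scaffold on which ubiquitin receptors dock, had the highest fold change, with 71.3, 60.1 and 67.7 TPM in control libraries and 105.1, 65.2 and 84.9 TPM in DSS organoids (0.33, SE 0.18, 95% interval −0.10 to 0.76, adjusted p = 0.271). DSS replicate 2 fell inside the control range. Psmd11, whose level is known from human embryonic stem cells to limit 26S assembly, had the lowest fold change, with 98.2, 94.4 and 101.5 TPM in control libraries and 85.9, 95.6 and 85.7 TPM in DSS organoids (−0.14, adjusted p = 0.370). Psmd14, the deubiquitinase, was 119.1, 116.2 and 119.5 TPM in control libraries and 141.5, 108.9 and 111.9 TPM in DSS organoids.

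The 7 assembly chaperones had 5 negative and 2 positive fold changes, with a median of −0.05. Psmg4, which helps build the alpha ring, had the lowest fold change of all 46 members and also the highest level of the chaperones. It was 80.3, 77.7 and 74.2 TPM in control libraries and 65.9, 64.3 and 50.1 TPM in DSS organoids, without overlap. The means of 77.4 ± 3.07 and 60.1 ± 8.67 TPM (SD, n = 3 each) gave a log2 change of −0.37 (SE 0.13, 95% interval −0.68 to −0.06, limma adjusted p = 0.114). The adjusted p was 0.0496 without DSS replicate 1, where 21.5% of all genes passed, and ran from 0.0496 to 0.304 over the alternatives. DSS replicate 1 was the DSS library nearest to the controls for Psmg4, so that pass is not support. Psmd5, a chaperone of the 19S base, had the highest fold change, with 61.1, 52.6 and 60.5 TPM in control libraries and 72.4, 51.6 and 62.1 TPM in DSS organoids (0.08, adjusted p = 0.744), and turned to −0.03 without DSS replicate 1. Psmd9, another chaperone of the base, was the lowest of the 43 members in level, at 19.3, 19.1 and 22.8 TPM in control libraries and 19.1, 14.7 and 16.4 TPM in DSS organoids (−0.27, adjusted p = 0.238).

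The activators replace or complement the 19S cap, and here 3 of 5 genes, Psme3, Psme4 and Psmf1, had separate groups (36.4% of all tested genes did) without passing the test. Psme4, an activator known for roles in histone turnover and DNA repair, had the highest fold change of the 43. It was 20.2, 19.2 and 21.9 TPM in control libraries and 29.8, 23.7 and 28.4 TPM in DSS organoids. The means of 20.4 ± 1.32 and 27.3 ± 3.22 TPM (SD, n = 3 each) gave 0.40 (SE 0.12, 95% interval 0.10 to 0.69, limma adjusted p = 0.0914). The adjusted p was 0.0410 without DSS replicate 2, where 15.5% of all tested genes passed, and between 0.0410 and 0.298 over the alternatives. DSS replicate 2 was the DSS library nearest to the controls for Psme4, so that pass is not support. Psme3, the nuclear activator, pointed the other way, with 124.1, 122.7 and 127.2 TPM in control libraries and 109.3, 106.7 and 113.7 TPM in DSS organoids (−0.18, SE 0.08, adjusted p = 0.202). Psmf1, an inhibitor of the core, was 20.9, 18.5 and 21.8 TPM in control libraries and 17.1, 18.3 and 18 TPM in DSS organoids (−0.18, adjusted p = 0.310). These values were separated by less than 1 TPM at their nearest.

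Psme1 and Psme2 encode the ring activator induced by interferon gamma and lie close together on chromosome 14. Psme1 was 140.3, 153.4 and 215.5 TPM in control libraries and 220.6, 152.5 and 179.4 TPM in DSS organoids (0.13, SE 0.20, adjusted p = 0.723), with control replicate 3 again the highest control. Psme2 was 150.0, 151.7 and 179.8 TPM in control libraries and 239.0, 164.0 and 219.3 TPM in DSS organoids (0.35, SE 0.16, 95% interval −0.03 to 0.74, adjusted p = 0.197). The groups of both genes overlapped. Psme2 passed without DSS replicate 2 (0.51, limma adjusted p = 0.0390), a comparison where 15.5% of all tested genes passed. That library was the only DSS library inside the control range of Psme2. The fit without it thus separates the groups by construction, and its p-value is not support. Over the alternatives the adjusted p of Psme2 ran up to 0.439. A near-identical copy, Psme2b, was listed at 7.65 to 14.6 TPM, so the division of reads between the copies is uncertain. Psme2 over Psme1 was 106.9%, 98.9% and 83.4% in control and 108.4%, 107.5% and 122.2% in DSS organoids. This ratio, which was not among the planned comparisons and was not tested, did not overlap. DSS replicate 2 was less than 1 percentage point above control replicate 1.

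The members, like all tested genes, varied more among the DSS than among the control libraries. In the 43 members outside the immunoproteasome the median SD on the log2 scale was 0.0865 among control and 0.206 among DSS libraries. Over all tested genes it was 0.118 and 0.235. The SD was larger among DSS libraries in 36 of the 43 (83.7%), against 75.8% of all tested genes. DSS replicate 1 was the highest DSS library for 41 of 46 members (89.1%) and DSS replicate 2 the lowest for 36 (78.3%), while these shares were 35.8% and 36.4% of all tested genes. The median log2 difference of the 43 genes from the control mean was 0.21 in DSS replicate 1, −0.16 in DSS replicate 2 and −0.03 in DSS replicate 3, where all tested genes had −0.01, 0.06 and 0.10. Every subcomplex outside the immunoproteasome was above the control mean in DSS replicate 1 and below it in DSS replicate 2. Psmb5, Psmc6, Psmg4, Psme3 and Psmf1 lay below the controls in all DSS libraries. Without DSS replicate 1, 35 of 46 members had a negative fold change, and without DSS replicate 2, 35 had a positive one.

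**Figure D5:**
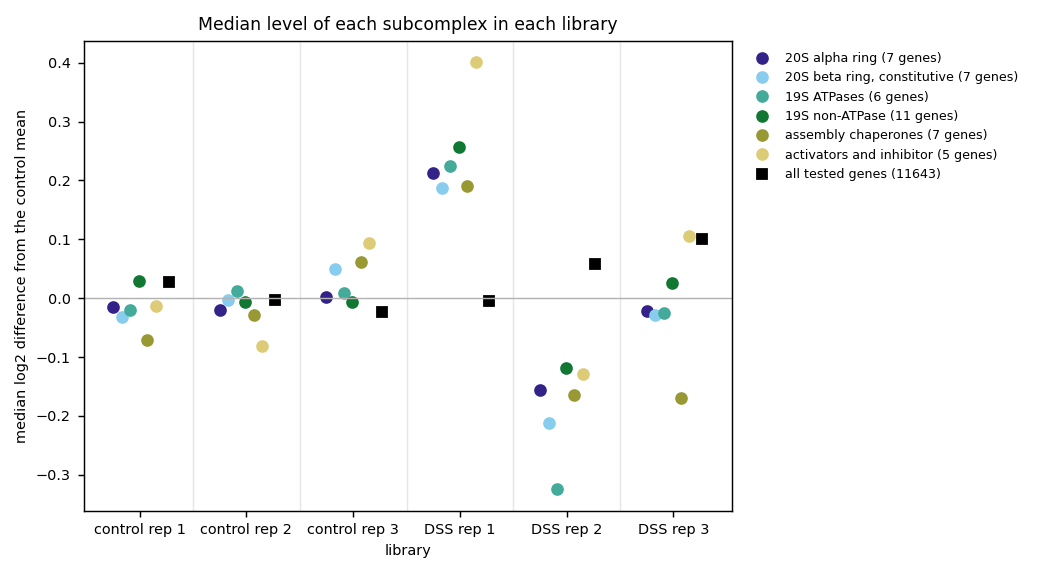
Median log2 difference from the control mean of each subcomplex in each of the 6 libraries (y axis, log2(TPM + 1) scale), with all tested genes as black squares. All 6 subcomplexes are above 0 in DSS replicate 1 and below 0 in DSS replicate 2, while the medians of all tested genes run from −0.02 to 0.10.

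Proliferation markers followed the same order among the DSS libraries. The 4 markers summed to 42.7, 49.4 and 59.7 TPM in control libraries and to 275.4, 87.6 and 192.9 TPM in DSS organoids, 2 of them past the threshold. Mki67, the standard marker of cycling cells, was 10.3, 11.5 and 13.1 TPM in control libraries and 58.1, 22.6 and 46.7 TPM in DSS organoids. The sum of proliferation markers in DSS replicate 2 was above all controls, while the proteasome sum there was the lowest of the 6 libraries. The part of proliferation in the spread of the proteasome genes was not tested.

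Genes known to control proteasome gene expression were read from a list of 13, of which 1 was higher and none lower past the threshold (6.45% and 3.89% of all tested genes), with 5 at an unadjusted p under 0.05 (29.6% of all) and a median log2 fold change of 0.13. Foxo4, known from human stem cells as a regulator of Psmd11, rose from 13.5, 16.4 and 13.7 TPM to 23.9, 21.4 and 20.4 TPM (0.56, SE 0.12, limma adjusted p = 0.0393). The call was absent under both other scalings. Keap1, the adaptor that targets Nfe2l2 for degradation, was 41.1, 38.3 and 44.3 TPM in control libraries and 55.9, 51.5 and 61.9 TPM in DSS organoids (0.44, SE 0.11, adjusted p = 0.0549). Nfe2l2, which drives antioxidant genes, was 222.6, 214.6 and 191.9 TPM in control libraries and 161.3, 178.1 and 155.8 TPM in DSS organoids (−0.34, SE 0.10, adjusted p = 0.0810). The groups of both genes were separate, and neither passed. Nfya and Nfyb, subunits of the CCAAT-binding factor NF-Y, were also separate without passing, with higher values in DSS organoids. Nfya was 11.4, 10.7 and 10.9 TPM in control libraries and 18, 16.1 and 13.2 TPM in DSS organoids (0.47, SE 0.14, adjusted p = 0.0778). Nfyb was 16.4, 15.8 and 13.8 TPM in control libraries and 18.4, 21.2 and 22.6 TPM in DSS organoids (0.41, SE 0.13, adjusted p = 0.0878). Nfe2l1, the factor that induces subunit genes when the proteasome is inhibited, was 114.7, 111.9 and 116.8 TPM in control libraries and 80.7, 157.7 and 118.9 TPM in DSS organoids (0.00, adjusted p = 0.991). It was lowest in DSS replicate 1 and highest in DSS replicate 2, the reverse of the order of most subunit genes among these 3 libraries.

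Of the 19 listed partners of the proteasome, 18 were matched and tested, and 1 was higher and none lower past the threshold (6.45% and 3.89% of all tested genes), with a median log2 fold change of 0.04. Ecpas, an adaptor and scaffold of the 26S particle, rose from 16.2, 14.9 and 16.0 TPM to 21.7, 20.3 and 23.4 TPM (0.45, SE 0.11, limma adjusted p = 0.0477), a call that was lost under both other scalings. Ublcp1, a phosphatase of the nuclear proteasome, was 22.4, 22.0 and 23.6 TPM in control libraries and 37.7, 25.6 and 34.2 TPM in DSS organoids (0.48, SE 0.16, adjusted p = 0.0969). Sem1, a small subunit of the 19S lid not covered by the naming of the members, was 559.7, 589.9 and 530.0 TPM in control libraries and 667.7, 638.9 and 688.9 TPM in DSS organoids (0.25, SE 0.08, adjusted p = 0.109). Both were separate between the groups without passing. Pomp, the maturation factor of the core, was 303.8, 299.9 and 299.0 TPM in control libraries and 362.3, 253.4 and 308.7 TPM in DSS organoids, with DSS replicate 1 highest and DSS replicate 2 lowest.

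Of a list of 11 genes for ubiquitin and its fusions, ubiquitin-activating enzymes, the segregase Vcp with its cofactors and the deubiquitinase Usp5, none was called in either direction by limma and 1 had an unadjusted p under 0.05 (29.6% of all tested genes did), with a median log2 fold change of −0.03. That gene was Rps27a, which encodes ubiquitin fused to a ribosomal protein, at 1922, 2006 and 1948 TPM in control libraries and 1766, 1622 and 1520 TPM in DSS organoids (−0.26, SE 0.09, adjusted p = 0.104). Its groups did not overlap. Ubb, a polyubiquitin gene, varied little over the 6 libraries, from 1072 to 1161 TPM (−0.03, SE 0.08, adjusted p = 0.858).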

How the data were processed

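RNA was extracted with ISOGEN and sequenced from NEBNext Ultra II libraries (strand not stated, so reads of overlapping antisense genes may not have been told apart). In the submitters' processing notes, trimming tools (Trim Galore 0.6.7, cutadapt 3.5), STAR 2.7.7a and 2.7.10a, RSEM 1.3.1 and genome build GRCm39 are named. The authors deposited TPM values, RSEM estimates scaled to a fixed total per library, for 40840 genes. TPM keeps no depth, so no counting interval was given, and a value of 0 was reported as listed at 0.

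Here log2(TPM + 1) was fitted with limma 3.58.1 in R 4.3.3 (empirical Bayes, mean-variance trend, no block), DSS against control, over the 11643 genes with a mean of at least 1 TPM. The model was tested on simulated data. Sample groups came from the labels. Alternatives were a pseudocount of 0.1, no filter, a minimum of 5 TPM, median-ratio scaling, quantile normalization, no trend, a replicate block and leaving out libraries.

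The members and lists were chosen with earlier results of these data known. Named were the immunoproteasome genes with their counterparts, Psme1 and Psme2, the members with the highest and lowest fold change and level in each subcomplex, members not tested, and up to 5 genes per other list by p. Other genes (Psmc6, Psmd14, Nfe2l1, Pomp, Ubb) were named after their values were seen. Of the partners, Paaf1 was not analysed here. Some genes that the rule names are not reported here. Promoter sequences and motif shares came from RefSeq GRCm38.p6.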

Additional observations from a re-analysis of the deposited data

How the results depend on the processing

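The median of the 43 members outside the immunoproteasome stayed between −0.11 and 0.08 in every alternative, and no member was called under the other pseudocount, filters, scalings, no trend or the replicate block. Higher and lower calls over all genes were 19 to 1691 and 11 to 807 with 1 library left out, and the calls of members there (Psmb5 and Psmg4 without DSS replicate 1, Psmb10, Psme2 and Psme4 without DSS replicate 2) fell in the comparisons with the most calls. Those ranges were 0 to 2 for higher and 0 to 2 for lower members of the 43, 0 to 2 for partners higher, 0 to 5 for regulators higher, 0 to 3 and 0 to 1 for antigen processing genes higher and lower, and 0 to 1 for ubiquitin genes in either direction. Psmb10 ranged from 0.59 to 0.95, Psmb8 from 0.63 to 1.71 and Psmb9 from 0.59 to 1.5. Without the low-value filter 456 genes were higher. Partners higher numbered 0 without the filter, under median-ratio scaling, quantile normalization, no trend and the block, and without control replicate 3 and DSS replicate 1 together, and regulators higher were 0 without the filter, under both scalings and under the block. Antigen processing genes lower were 0 without the filter and without the trend. With control replicate 3 and DSS replicate 1 left out together, Psmb8 was 1.31 and Psmb9 1.42, 1 of the 43 members was lower, 2 regulators and 1 ubiquitin gene were higher. The cause of these changes was not tested. The sign turned with 1 library left out for Psma4 (−0.12 to 0.0195), Psmb6 (−0.12 to 0.0792), Psmc5 (−0.15 to 0.32), Psmd5 (−0.0323 to 0.21) and Psme1 (−0.0119 to 0.31), and with the pair left out for Psmc5 (−0.17) and Psmd5 (−0.00152). Of the 46 members, 21 kept their sign under all 14 alternatives, and 25 with a fold change of at most 0.13 did not. The share of calls that were higher was 62.4%, against 51.4% with median-ratio scaling and 48.2% with quantile normalization. Same-numbered libraries came from different mice and deviated together at correlations of 0.20, 0.03 and 0.04. The value of 0.20, for the replicates numbered 1, was the highest of all pairs. Whether same-numbered libraries share more than a number was not tested. Control replicate 2 correlated best with DSS replicate 3 and control replicate 3 with DSS replicate 2. The replicate block gave 346 genes higher and 185 lower. With 3 libraries per group and unknown depth, small differences in low genes cannot be resolved.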
